A study of Mus musculus with 4 samples.

Results

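The forkhead genes encode transcription factors that bind DNA through a shared winged-helix domain, the forkhead box. In the deposited expression tables, 43 of 22892 entries had a symbol made of Fox, 1 letter and a number, and all 43 were taken as members whatever their values. The tables hold 22492 symbols in all. Foxf1a, the Foxf1 gene as the tables spell it, and the antisense gene Foxl2os did not match the pattern and were not counted, nor were Foxred1 and Foxred2, which are not forkhead factors.

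The cells were mouse E14Tg2a embryonic stem cells, either unmodified (WT) or with Tet1, Tet2 and Tet3 mutated by CRISPR (TetTKO). Tet enzymes oxidise 5-methylcytosine, a step towards loss of DNA methylation. Per the labels' protocols, the mutant line was derived from a clone picked after transient transfection of px330 vectors with the guides and puromycin selection, and the transfected cells were in 2i medium, which holds a MEK and a GSK3 inhibitor. Both lines spent a minimum of 17 days in serum medium (15% serum, LIF at 1000 units/ml) before harvest. Each genotype had 1 whole-genome bisulfite (WGBS) library and 1 RNA-seq library, 4 libraries in all, so nothing reported has a replicate, no test across samples was possible, and a difference compares 2 libraries. Bisulfite sequencing reads 5-methylcytosine and 5-hydroxymethylcytosine alike.

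Forkhead factors are known as regulators of cell identity. FOXA factors open chromatin in endoderm and liver, FOXD3 acts in pluripotent cells and neural crest, FOXH1 carries Nodal and activin signals together with SMAD proteins, and FOXO factors are held out of the nucleus when insulin and PI3K-AKT signalling are active. Many of the genes are short, with 1 or few exons, and lie in CpG islands, stretches of DNA dense in CpG that are usually unmethylated whether or not the gene is active.

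The libraries differed in ways that touch the values below. Both WGBS tables cover 14323377 CpGs at 5 or more reads, with a median of 8 reads in WT and 10 in TetTKO. Chromosome 6, which holds Foxi3, Foxj2, Foxm1, Foxp1 and Foxp2, had 1.34 times the median autosomal coverage in WT and 0.982 times in TetTKO, and its 514 measured genes had a median log2 fold change of -0.43. Tet1 was at 15.1 FPKM (fragments scaled by transcript length and library size) in WT and 4.36 in TetTKO, Tet2 at 14.9 and 4.13, and Tet3 at 0.32 and 0.27. All 8 embryonic stem cell markers were present in both libraries, from 25.1 to 3211 FPKM in WT. Of 12 primitive endoderm markers 9 reached 1 FPKM in either library. Gata6, Gata4, Sox17, Dab2, Pdgfra and Cubn did so in TetTKO only, so the filter itself fixed their direction. Col4a1 (6.44 FPKM in WT and 25.35 in TetTKO), Lama1 (10.49 and 15.95) and Amn (2.04 and 4.96) could have gone either way and were higher. The list of 12 summed to 22.3 FPKM in WT and 58.3 in TetTKO, with Col4a1 and Lama1 the highest in both. Lists for definitive endoderm (1 of 8 measured), ciliated cells (2 of 7), neural crest (1 of 7), fibroblasts (1 of 8) and T cells (0 of 5) were mostly under 1 FPKM.

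Promoters of 4 members are shown because they span what the methylation data held. Foxk2 is an expressed gene with a CpG-dense unmethylated promoter, and Foxd1 a silent gene with an unmethylated one. Foxa2 is a silent gene whose promoter at the gene end was more methylated in TetTKO. Foxi1 is a silent gene with few CpGs and a methylated promoter. These 4 were chosen after their values were seen. The Foxa2 promoter shown is the CpG-poorest of its RefSeq promoters. The most CpG-dense of them could not be located in the methylation data, so its methylation is unknown. Each line is the 250 bases before the RefSeq transcription start, 5′ to 3′ on the strand of the gene, with CpGs in capitals, on build GRCm38.p6: Foxk2 at chr11:121259737-121259986 (+), Foxd1 at chr13:98353995-98354244 (+), Foxa2 at chr2:148046970-148047219 (-) and Foxi1 at chr11:34208090-34208339 (-).
Foxk2: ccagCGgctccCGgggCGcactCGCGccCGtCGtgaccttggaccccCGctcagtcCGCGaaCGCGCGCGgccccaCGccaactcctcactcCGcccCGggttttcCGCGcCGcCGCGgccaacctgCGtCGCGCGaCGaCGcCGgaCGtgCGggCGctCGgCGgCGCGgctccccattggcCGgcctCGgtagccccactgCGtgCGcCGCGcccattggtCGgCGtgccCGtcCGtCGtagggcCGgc
Foxd1: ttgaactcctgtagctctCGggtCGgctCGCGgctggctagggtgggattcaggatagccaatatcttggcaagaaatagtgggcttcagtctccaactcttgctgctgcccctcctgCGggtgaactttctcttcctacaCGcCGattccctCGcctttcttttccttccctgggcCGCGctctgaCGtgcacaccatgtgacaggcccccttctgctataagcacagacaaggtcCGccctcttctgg
Foxa2: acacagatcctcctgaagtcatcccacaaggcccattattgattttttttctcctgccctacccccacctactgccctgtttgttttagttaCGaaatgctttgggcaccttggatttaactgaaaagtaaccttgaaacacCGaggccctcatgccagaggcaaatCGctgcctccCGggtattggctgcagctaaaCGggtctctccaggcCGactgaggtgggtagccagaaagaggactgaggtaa
Foxi1: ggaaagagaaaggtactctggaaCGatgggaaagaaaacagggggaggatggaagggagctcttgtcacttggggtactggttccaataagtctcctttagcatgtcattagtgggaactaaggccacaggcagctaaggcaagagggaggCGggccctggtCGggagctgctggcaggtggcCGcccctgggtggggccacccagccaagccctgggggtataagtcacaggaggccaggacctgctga
The 250 bases held 48 CpGs for Foxk2, 12 for Foxd1, 6 for Foxa2 and 4 for Foxi1.

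RefSeq held 33 promoters for 28 of the 43 members. Over 300 bases (250 before the start and 50 after), these promoters had a median of 22 CpGs, against 7 over all 32851 mouse promoters. At least 10 CpGs were present in 75.8% of the forkhead promoters and in 43.5% of all promoters. The methylation tables are on build mm9, so no position was carried over between builds. Each promoter was instead located by the spacing of its CpGs, which had to match at least 5 listed CpGs near the gene, with the next-best place matching no more than 1 in 2 of that number. By this rule 25 promoters of 23 genes were placed, 22 of them at an end of the gene.

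Expression was limited to a minority of the family, and its ranking was much the same in both genotypes. In WT, 15 members (34.9%) reached 1 FPKM, the level used here for expressed, against 46.5% of all 22492 genes. The other 28 were called silent: 19 were under 0.1 FPKM and 9 lay from 0.1 to 1. Of the silent members 11 were listed at 0 in WT and 5 in both libraries, namely Foxd2, Foxe3, Foxi1, Foxl2 and Foxn1. Foxi3 at 1.00 FPKM lay just inside the limit and Foxr2 at 0.92 FPKM just outside it.

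No forkhead gene was called 2-fold higher or lower in TetTKO. Of all 10984 genes that reached 1 FPKM in WT or TetTKO, 1.77% were at least 2-fold higher, 0.847% at least 2-fold lower and 2.61% either, on the log2(FPKM + 1) scale, so that 0 calls among 16 measured members is near what the background gives. The pseudocount of 1 FPKM understates differences of low genes. The median log2 fold change of the 16 was 0.15, against -0.01 over all measured genes. Among the 14 members with at least 1 FPKM in both libraries, 10 (71.4%) were higher in TetTKO by any amount, against 47.4% of all genes. In bulk RNA, fewer cells that express a gene and less RNA per cell cannot be told apart.

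The FOXO genes, the effectors of insulin and growth factor signalling, held the highest level of the family. Foxo4 was at 31.1 FPKM in WT and 46.5 in TetTKO, a log2 fold change of 0.57, and ranked first in both libraries. Foxo3 was at 4.46 FPKM in WT and 6.80 in TetTKO, a log2 fold change of 0.51. Foxo1 was at 0.58 and 1.00 FPKM, so it was silent by the WT limit and at the limit in TetTKO. Foxo6, best known from brain, was at 0.29 and 0.10 FPKM. Thus 3 of 4 FOXO members were higher in TetTKO and the fourth was low in both.

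Genes for factors that act in pluripotent cells were also among the higher members. Foxh1, the SMAD partner in Nodal signalling, was at 21.5 FPKM in WT and 28.6 in TetTKO, with a log2 fold change of 0.39. Foxd3, which acts in pluripotent cells and neural crest, was at 10.04 and 10.6 FPKM, a difference of 0.07. No other FOXD gene was above 0.13 FPKM in either library.

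The FOXN, FOXK, FOXP and FOXJ groups hold broadly expressed members beside tissue-restricted ones. Foxn2, next in level after Foxo4 and Foxh1 in both libraries, was at 15.2 FPKM in WT and 17.2 in TetTKO. Foxn3, a checkpoint suppressor by its older name, was at 4.48 and 6.44 FPKM, a log2 fold change of 0.44. Foxn1, the thymic epithelium factor, was listed at 0 in both, and Foxn4, which acts in retina, was at 0.64 and 0.39 FPKM. Foxk2, which binds the BAP1 deubiquitinase, was at 6.05 FPKM in WT and 5.13 in TetTKO, and its paralog Foxk1 was at 1.13 and 1.32. Foxp1, a transcriptional repressor, was at 6.29 and 5.56 FPKM and Foxp4 at 1.91 and 2.59. Foxp2, known for its part in speech and vocal learning, and Foxp3, which specifies regulatory T cells, were at 0.06 FPKM or less in both libraries. Foxj3 had the closest values of the measured members, 3.89 and 3.90 FPKM. Foxj1, which drives motile cilia, was at 0.62 and 0.81 FPKM, and Foxj2 at 0.19 and 0.13.

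The lower values in TetTKO belonged to Foxa3, Foxm1, Foxr1, Foxk2 and Foxp1. Foxa3, a liver and gut endoderm factor, had the largest difference in size, from 1.37 FPKM in WT to 0.54 in TetTKO, a log2 fold change of -0.62. Its plain ratio was 2.54-fold lower, and with a pseudocount of 0.1 FPKM it passed the 2-fold rule. Foxm1, which drives genes of mitotic entry, was at 2.65 and 1.75 FPKM, a log2 fold change of -0.41 that lies near the -0.43 median of chromosome 6, where it sits. Foxr1 was at 1.59 and 1.12 FPKM. On the same chromosome, Foxi3, a factor of ectodermal appendages, went the other way, from 1.00 to 2.06 FPKM, a log2 fold change of 0.61. The part of chromosome 6 in these values was not tested. The plot of FPKM by gene shows these 16 pairs.

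**Figure D1:**
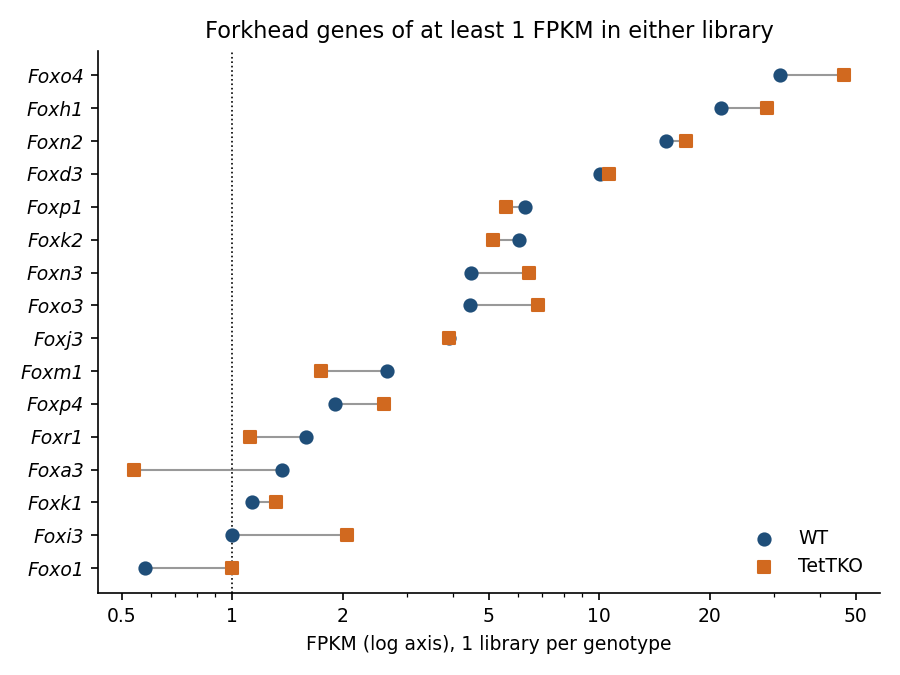
FPKM of the 16 forkhead genes that reached 1 FPKM in WT or TetTKO, on a log axis, with 1 point per library (circles WT, squares TetTKO, joined by a grey line) and a dotted line at 1 FPKM. Foxo4 and Foxh1 are highest in both libraries, and Foxa3 (1.37 and 0.54) and Foxi3 (1.00 and 2.06) have the longest lines.

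Endoderm members below the expression limit stayed low. Foxa2, a pioneer factor of endoderm and node, was at 0.11 FPKM in WT and 0.40 in TetTKO, and Foxa1 at 0 and 0.06. The primitive endoderm marker list had a higher sum in the same library, with the limits given above. The part of such cells in the Foxa2 values was not tested. Foxq1 was at 0.46 FPKM in WT and 0.94 in TetTKO. The remaining silent members, among them Foxb1, Foxc1, Foxc2, Foxe1, Foxf2 and Foxl2, were at 0.06 FPKM or less in both libraries, apart from Foxd1 (0.13 and 0.01), Foxl1 (0.07 and 0.17) and Foxr2 (0.92 and 0.63).

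Lists of genes that control FOXO factors or work with forkhead proteins were read with the same 2-fold rule. Of 26 FOXO control genes, such as PI3K subunits and 14-3-3 proteins, 0 passed in either direction, with a median log2 fold change of 0.09. Sgk1, a kinase that phosphorylates FOXO3, was at 139.8 FPKM in WT and 72.7 in TetTKO. Of 22 measured FOXO target genes (27 listed), 0 were higher and 2 lower, with a median of -0.16, where 1.77% of all measured genes were higher and 0.847% lower. The lower ones were Cdkn1b, a cell cycle inhibitor at 26.1 and 10.8 FPKM, and Gabarapl1, an autophagy gene at 22.2 and 9.74, both on chromosome 6. Irs2 was at 0.49 and 1.52 FPKM.

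Of the 24 FOXM1 and G2/M genes 0 passed, with a median of -0.14. Cenpa, the centromeric histone, was at 57.5 FPKM in WT and 36.0 in TetTKO, and Bub1 at 38.7 and 54.0. Of 13 measured FOXH1 and Nodal-SMAD genes (15 listed) 0 passed, with a median of 0.05, while Eomes was at 0.42 and 1.36 FPKM and Smad3 at 1.65 and 2.88. Of 18 partners of FOXP, FOXK and FOXN proteins 0 passed, with a median of -0.003. Sin3a, a co-repressor that FOXK proteins bind, was at 26.4 and 17.4 FPKM.

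The ends of the forkhead genes were mostly unmethylated, in silent members as well as expressed ones. Since the tables give no strand, both ends of each gene were measured, from 1000 bp outside to 500 bp inside, and the end less methylated in WT was taken to stand for the gene. An end can reach an expressed neighbour, such as Sympk (21.25 FPKM in WT), 838 bp from Foxa3. Kifc2 (3.18) lies 111 bp from Foxh1, and 5930416I19Rik (10.07) 97 bp from Foxm1. The part of such neighbours in the end values was not tested. The 41 members with at least 5 CpGs in an end had a median of 2.46% in WT and 4.37% in TetTKO (the X-linked Foxp3 and Foxr2 had too few). Under 10% in WT were 31 of 41 (75.6%), against 53.7% of all gene entries. Among silent forkhead genes the share was 19 of 26 (73.1%), against 25.8% of all silent genes, and among expressed ones 12 of 15 (80.0%), against 82.7% of all expressed genes.

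Within the family, expressed and silent genes therefore lay close together at their ends. In WT the median was 1.98% for the 15 expressed and 3.55% for the 26 silent members, while over all genes it was 2.34% for expressed and 53.2% for silent ones. In TetTKO the forkhead medians were 2.01% and 5.85%. The silent members with the lowest ends in WT were Foxp2 (0.0%), Foxf2 (0.130%), Foxo1 (0.425%), Foxa1 (0.569%), Foxo6 (0.701%) and Foxl2, the ovarian granulosa factor (0.794%). Foxf2 and Foxp2 are listed at 0.04 and 0 FPKM in WT, so an end at or near 0% went with little or no RNA.

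A few silent members had methylated ends. Foxi1, a factor of inner ear and kidney, was at 78.1% in WT and 76.3% in TetTKO, and Foxs1 at 53.7% and 48.5%. Foxl1, of gut mesenchyme, was at 33.5% and 44.2%, Foxn1 at 25.6% and 28.1%, Foxd4 at 21.0% and 19.5%, and Foxi2 at 16.7% and 20.4%. Foxi1 was methylated along its whole length, with 84.0% of CpG methylation over the interval and 84.0% at the other end.

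In TetTKO the less methylated end was higher in 33 of 41 members (80.5%), against 66.9% of all gene entries, but by small amounts, with a median of 1.20 points. The end was chosen by its WT value, which also enters the difference. Choosing it in TetTKO kept the sign of all 41 differences. That choice picked the same end in every member other than Foxb2, so it could not check the effect of choosing by WT. At least 10 points higher were 4 members (9.76%), close to the 9.43% of all entries, and at least 10 points lower was 1, against 7.90%. None of the 4 gains could be seen at a coverage of at least 10 reads: Foxl1 and Foxp1 turned to -9.64 and -1.34 points, and Foxa2 and Foxq1 had too few CpGs. Silent members were higher in 23 of 26 cases and expressed members in 10 of 15, against 58.0% of all silent and 76.1% of all expressed genes. The share of 66.9% takes in many methylated ends. Among ends under 10% in WT, 19 of 19 silent and 8 of 12 expressed members were higher. The shares over all such genes were 90.9% of silent and 79.8% of expressed ones, so low ends at large were mostly higher too. Whether the difference between silent and expressed members exceeds library error was not tested.

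The largest gains among silent members were at Foxq1, from 6.73% to 17.7% over 41 CpGs, Foxa2, from 14.6% to 25.4% over 31 CpGs, and Foxl1, from 33.5% to 44.2% over 31 CpGs. Foxb2 went from 1.01% to 8.38%, Foxn4 from 2.53% to 8.71% and Foxj1 from 4.32% to 10.1%. Lower in TetTKO were only Foxs1 (-5.21 points), Foxi1 (-1.84) and Foxd4 (-1.47) of the silent members. These sizes depended on how the end was drawn. With ends of 1 in 2 the length the gain was 1.33 points at Foxq1, 1.03 at Foxn4 and 1.19 at Foxj1, while it was 16.4 at Foxa2 and 14.5 at Foxl1. Foxq1 and Foxa2, with higher ends in TetTKO, also had more RNA there (0.46 to 0.94 FPKM and 0.11 to 0.40), whereas Foxn4 had less.

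**Figure D2:**
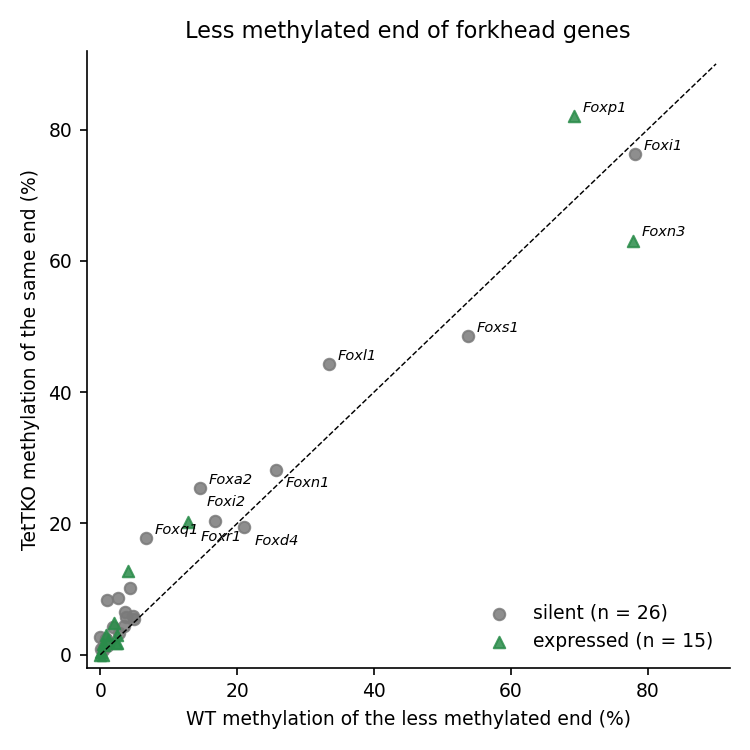
Methylation of the less methylated end of 41 forkhead genes in WT (x axis, percent) and TetTKO (y axis, percent), with 1 point per gene (grey circles silent, green triangles expressed) and a dashed line of equality. Most points crowd under 10% near the line, while Foxi1, Foxs1, Foxp1 and Foxn3 lie above 45% in both libraries.

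Expressed members followed with both ends as measured. Foxo4 had 5 CpGs at its left end, 0% in both libraries, and no listed CpG at its right end. Foxh1 had 10.4% in WT and 22.8% in TetTKO at the left end and 2.38% and 2.98% at the right. Foxd3 had 0.391% and 1.59% at the left end and 23.9% and 22.6% at the right. Foxn2, with 2.46% and 1.71% at the left and 87.6% and 83.3% at the right, had the usual contrast of an unmethylated and a methylated end.

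The same contrast held for the long members. Foxk2 had 1.10% in WT and 2.01% in TetTKO at the left end and 84.5% and 79.4% at the right. Foxk1 had 2.28% and 1.79% at the left and 83.2% and 70.2% at the right. Foxj3 had 0.765% and 2.99% at the left and 82.8% and 74.9% at the right. Each of these 3 genes had a lower value at its methylated end in TetTKO. Foxo3 had 75.4% and 77.1% at the left and 0.0958% and 0.394% at the right, and Foxo1 had 0.425% and 0.792% at the left and 81.1% and 83.4% at the right. Foxm1 had 0.514% and 1.46% at the left and 59.9% and 53.1% at the right, and Foxp4 had 49.0% and 65.0% at the left and 0.352% and 0% at the right.

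The lower-expressed members were more varied. Foxr1 had 78.3% and 72.1% at the left end and 12.9% and 20.2% at the right. Foxa3 was low at both ends in WT, with 10.2% and 16.7% at the left and 3.997% and 12.8% at the right. Foxi3 had 1.98% and 4.89% at the left and 78.3% and 81.1% at the right. All 3 thus had a higher value in TetTKO at their less methylated end, whereas RNA was lower in TetTKO for Foxr1 and Foxa3 and higher for Foxi3. The placed promoter of Foxa3 at that end was not higher, with 1 methylated of 67 read calls in WT and 1 of 109 in TetTKO.

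Foxp1 and Foxn3, both expressed, had methylated ends of their listed intervals. Foxp1 had 69.3% in WT and 82.0% in TetTKO at the left end over 17 CpGs and 88.8% and 86.0% at the right. Foxn3 had 80.1% and 89.3% at the left over 5 CpGs and 77.9% and 63.1% at the right over 9. The unmethylated CpG-dense stretches lay inside: in Foxp1 the mm9 window at 98978000 on chromosome 6 had 69 CpGs at 0.0% and 0.373%. In Foxn3 the windows at 100630000 and 100631000 on chromosome 12 had 62 and 76 CpGs, at 0.147% and 0% in WT and 0.632% and 0.470% in TetTKO. For these 2 genes the interval ends thus lie away from the unmethylated stretches. Leaving aside this pair, the highest less methylated end among expressed members was that of Foxr1.

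At the placed promoters themselves, methylation was near 0 in most members. The 22 at a gene end had a median of 0.410% in WT and 1.15% in TetTKO, and 19 (86.4%) were under 10% in WT, against 87.5% of all 9221 placed promoters. In 17 of the 22 the start was the less methylated end. Higher in TetTKO by any amount were 11 (50.0%), against 49.9% of all, so the family did not stand out. The read calls of a promoter also cover bases after the start, which the sequences shown above leave out. The Foxk2 promoter had 0 methylated of 463 read calls in WT, which allows up to 0.794% by an exact 95% binomial interval. In TetTKO it had 3 of 578. The Foxd1 promoter had 4 of 170 and 12 of 137, with 1.87% and 6.65% as means over its 15 CpGs. Such intervals cover counting error only, since 1 read can span several CpGs and PCR duplicates are counted as separate molecules.

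Among the 22 promoters at a gene end, gains of at least 10 points were at Foxa2 and Foxe3 (9.09%), against 8.40% of all. Both are silent, and among silent genes the share was 14.3% of members, against 19.9% of all. The Foxa2 promoter at the gene end had 2 methylated of 75 read calls in WT, with exact bounds of 0.325% and 9.30%. In TetTKO it had 14 of 79, with bounds of 10.04% and 27.9%. As means over CpGs the values were 2.68% and 17.1%. Most of its measured CpGs lie after the start, outside the sequence shown above. No interval was taken for the shown bases alone. Foxe3, the lens factor, went from 5.43% to 16.1%, with 4 of 78 and 16 of 113 read calls and intervals of 1.41% to 12.6% and 8.32% to 22.0%, which overlap. The Foxa2 intervals, taken over bases before and after the start together, do not overlap. Of the 3 promoters placed inside a gene, 1 of Foxp1 had the largest gain of all 25, from 25.7% to 59.9% over 5 CpGs, with 20 of 77 and 31 of 52 read calls (bounds of 16.6% and 37.2% in WT, 45.1% and 73.0% in TetTKO). The other Foxp1 promoter was at 0% in both over 27 CpGs, and the inner Foxa2 promoter at 1.43% and 4.396%. A further Foxa2 promoter was not placed, so it has no value. Its sequence held 23 CpGs, against 12 for the Foxa2 promoter at the gene end. The Foxi1 promoter was at 75.5% in WT and 80.0% in TetTKO over 5 CpGs, and Foxn1 at 76.7% and 68.2%.

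Across whole gene intervals, methylation followed length. Short forkhead genes were unmethylated along most of their span: the 23 members under 6 kb had a median of 5.18% in WT, from 0.489% at Foxe3 to 84.0% at Foxi1, and 16 of them were under 10%. Over all 43 members the share was 37.2%, against 4.25% of all gene entries. Of all entries under 6 kb, 16.3% were under 10%, to be set beside the 16 of 23. The 20 members of at least 6 kb had a median of 64.0%, from 12.2% at Foxo4 to 86.0% at Foxp3. Across the 43 genes, WT methylation correlated with length (Pearson r = 0.746 on log10 length, Spearman rho = 0.795), a description over genes of the same library. Silent members had a median length of 3.87 kb and 33.4 listed CpGs per kb, and expressed members 49.8 kb and 11.3, so the medians of 10.2% in silent and 57.5% in expressed intervals cannot be told apart from length.

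The short intervals were slightly more methylated in TetTKO, whereas most gene entries of all lengths were less so. Of 43 members 29 (67.4%) were higher in TetTKO, against 30.8% of all gene entries, and the median difference was 1.30 points, against -3.02 over all genes. Under 6 kb, 21 of 23 were higher, with a median of 1.74 points, and at 6 kb or more 8 of 20, with a median of -1.24. The share over all entries under 6 kb was not taken, so family and length cannot be told apart here. Of the 23 short members 16 were under 10% in WT, which leaves little room for a lower value. By class, 21 of 28 silent and 8 of 15 expressed members were higher, against 25.6% of all silent and 36.3% of all expressed genes. Other developmental families went further the same way: 97.4% of Hox intervals were higher, with a median of 6.04 points, and 96.5% of intervals of other homeobox families, with a median of 5.16.

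Differences of at least 10 points were rare in either direction. Foxa3 was the 1 member at least 10 points higher, from 46.4% to 56.7%, against 2.85% of all entries. Foxp3 was the 1 member at least 10 points lower, from 86.0% to 71.4% over 33 CpGs, against 7.50%; its interval overlaps the expressed gene Ccdc22 (19.2 FPKM in WT and 16.4 in TetTKO). Just short of 10 points were Foxl1 (15.2% and 25.2%), Foxo4 (12.2% and 21.7%) and, downwards, Foxp2 (78.2% and 68.3%). Foxa2 went from 5.57% to 13.5%, Foxb1, a factor of the developing brain, from 1.44% to 7.78%, and Foxo6 from 29.8% to 37.7%.

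Among expressed members the remaining intervals differed less. Foxp4 was at 37.1% in WT and 43.9% in TetTKO, Foxi3 at 20.4% and 23.0%, Foxr1 at 64.6% and 66.3% and Foxk1 at 53.7% and 55.4%. Foxd3 was at 1.64% and 1.73%, and Foxh1 at 1.74% and 1.96%, both low as means over the interval. Lower in TetTKO were Foxj3 (65.1% and 58.1%), Foxk2 (66.0% and 61.4%), Foxn2 (57.5% and 55.3%), Foxp1 (77.7% and 75.8%), Foxm1 (60.9% and 59.1%), Foxo3 (62.3% and 61.1%) and Foxn3 (68.0% and 67.6%). Foxo1, silent in WT, was at 63.4% and 62.1%. The plot by length separates the short unmethylated genes from the long methylated ones.

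**Figure D3:**
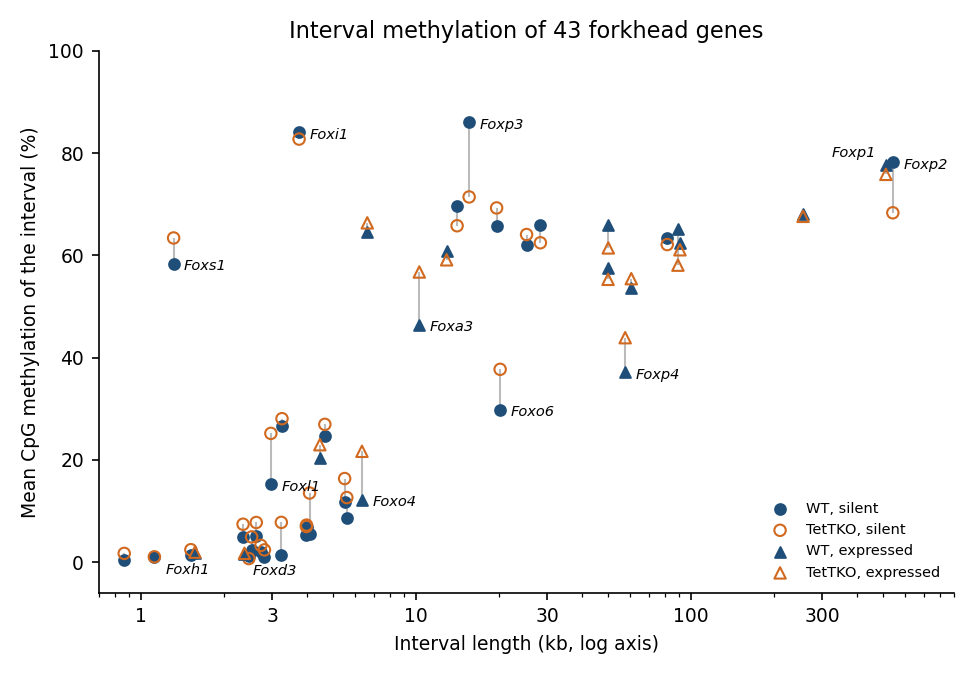
Mean CpG methylation of the gene interval (percent) against interval length (kb, log axis) for 43 forkhead genes, with filled points for WT, open points for TetTKO and a grey line joining the pair (circles silent, triangles expressed). Genes under 6 kb sit mostly under 30% apart from Foxi1 and Foxs1, and most longer genes sit above 50%.

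The clearest contrast between silent and expressed members lay outside the genes. Over the CpGs from 1 to 5 kb outside the less methylated end, 26 silent members had a median of 41.0% in WT and 47.8% in TetTKO, with a median difference of 5.50 points. The 15 expressed members had 65.1% and 62.4%, with a median difference of -4.14. Higher in TetTKO were 17 of 26 silent and 3 of 15 expressed members, against 31.0% of all gene entries. At least 10 points higher were 6 silent and 0 expressed members, against 5.34% of all entries. The distance was chosen after the profile by distance was seen, so these counts describe the profile and are no independent support for it. The classes also began at different WT levels. Silent members with a WT flank above 65.1% were lower in TetTKO apart from Foxj1 and Foxn1. Those below it were higher apart from Foxc2. Expressed members below it went both ways, with Foxd3 and Foxp4 higher and the rest lower. The part of the WT level in the contrast between classes was not tested.

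Silent genes at large did not have a higher median flank in TetTKO, while silent Hox genes did. All silent genes had a median difference of -5.09 points over the same distance, and the 2745 silent genes with an end under 10% in WT had 66.1% and 62.8%, with a median of -1.97 and 41.9% higher in TetTKO. The 39 Hox genes, none expressed in WT, had 22.6% and 29.6%, with a median of 6.82. Without chromosome 6, the 24 remaining silent forkhead members had a median of 5.50 points. The forkhead value depended on coverage: requiring at least 10 reads per CpG, 17 silent members could be measured, with a median of 1.08 points, against 4.19 for the same 17 genes at the deposited minimum of 5, and 9 rather than 11 of them were higher in TetTKO.

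The 6 silent members at least 10 points higher in their flank are named here after their values were seen. Foxa1, the pioneer factor of endoderm and several epithelia, went from 16.7% in WT to 39.4% in TetTKO over 87 CpGs. Foxp2 went from 17.1% to 33.3% over 77 CpGs, Foxl2 from 29.4% to 44.8% over 58 and Foxc1, of mesenchyme and eye, from 29.0% to 43.1% over 66. Foxb1 went from 17.7% to 29.8% over 86 CpGs and Foxn4 from 44.2% to 55.4% over 66. At a coverage of at least 10, the differences were 13.5 points for Foxa1, 14.1 for Foxb1 and 6.13 for Foxn4, and the flanks of Foxp2, Foxl2 and Foxc1 had too few CpGs. Lower by at least 10 points were the flanks of Foxe3 (-16.8 points), Foxs1 (-10.9) and, among expressed members, Foxj3 (-20.2). Foxd3, expressed, had a flank at 8.23% and 15.6%.

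By distance, the gain in silent members lay on both shoulders of the unmethylated stretch. Inside here means towards the gene, since the bins did not stop at its other end. Silent members had a median length of 3.87 kb, so the bin at 4.5 kb inside lay past many of them. For the shortest, such as Foxe3, the bins at 1.5 and 2.5 kb did so too. In the first 1 kb inside the less methylated end, the silent median was 1.51% in WT and 3.22% in TetTKO. In the next 1 kb inside it was 5.87% and 13.9%, and in the one after that 38.9% and 52.1%. Centred at 1.5 kb outside, the medians were 35.6% and 43.2%, and at 2.5 kb outside 35.8% and 50.0%, over 22 genes each. At 3.5 kb outside and at 4.5 kb inside the TetTKO median was already the lower one, although the median difference gene by gene was 1.41 and 1.95 points. Taken gene by gene, the median difference was 7.85 points at 1.5 kb and 7.58 at 2.5 kb outside, and 1.72, 2.76 and 3.43 points at 0.5, 1.5 and 2.5 kb inside. At 2.5 kb outside and at 1.5 and 2.5 kb inside this was well under the gap between the medians. Expressed members had 0.470% and 0.505% in the first 1 kb inside, 51.8% and 51.3% at 1.5 kb outside and, over 9 genes, 85.8% and 69.3% at 3.5 kb outside.

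**Figure D4:**
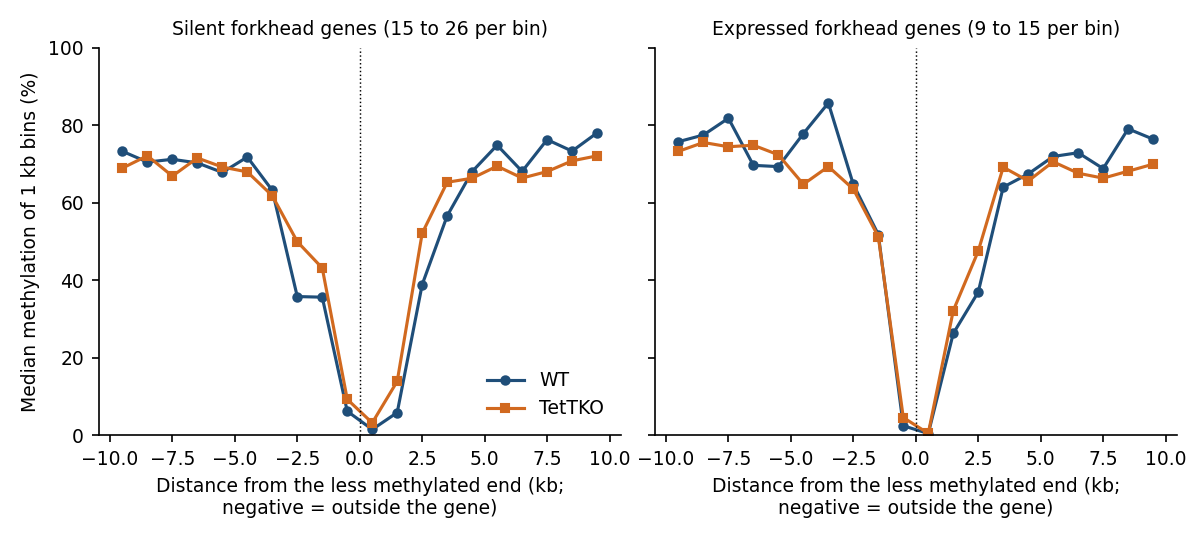
Median methylation (percent) of 1 kb bins by distance from the less methylated end (kb, negative outside the gene) for silent (left) and expressed (right) forkhead genes, in WT (blue circles) and TetTKO (orange squares). Bins on the gene side run on past the other end of short genes. In silent genes the TetTKO line lies above WT from 2.5 kb outside to 3.5 kb on the gene side. In expressed genes the lines meet at 1.5 kb outside and the WT line is higher at 3.5 kb outside.

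In fixed 1 kb windows within 10 kb of the genes, gains of at least 30 points outnumbered losses. Of 2208 windows with at least 5 CpGs, 31 (1.40%) were at least 30 points higher in TetTKO, against 0.670% of all windows, and 10 (0.453%) were at least 30 points lower, against 0.638%. The gains lay near 20 genes. Of 1161 windows with at least 10 CpGs, 16 (1.38%) were higher, against 1.06%, and 2 (0.172%) were lower, against 0.0804%, so the excess of gains over the genome was smaller where more CpGs were averaged. Silent members had 17 gains and 6 losses among 913 windows, and expressed members 14 and 4 among 1295.

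The largest gain was 2350 bp outside Foxp2, at chr6:14848000-14848999 (mm9), from 10.9% to 54.1% over 26 CpGs. In WT 23 of its 213 read calls were methylated, with exact 95% bounds of 6.97% and 15.8%. In TetTKO 109 of 190 were, with bounds of 50.0% and 64.5%. The long Foxp1 gene held 3 of the 6 largest gains, all inside the gene: the window at 99154000 went from 7.97% to 45.8%, that at 98974000 from 39.9% to 77.4% and that at 98981000 from 12.8% to 47.9%. In Foxp4 the window at 48005000 on chromosome 17 went from 24.3% to 62.2%, and in Foxo6 that at 119948000 on chromosome 4 from 22.1% to 57.3%. Foxo6, Foxp1 and Foxp4 had 4 windows each at least 30 points higher, of 30, 485 and 69 windows. Foxn3 had 3 of 234. Foxp1 had the most windows of any member, so its count of gains goes with its length.

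Where 10 or more CpGs were averaged, no loss was as large as the largest gain. In Foxk1 the window at 142890000 on chromosome 5 went from 81.4% to 47.2%, and in Foxo3 that at 41975000 on chromosome 10 from 85.3% to 55.3%. The next were under 30 points: near Foxi3 at 70903000 on chromosome 6 (77.7% and 47.8%), near Foxc2 at 123636000 on chromosome 8 (58.2% and 32.2%), in Foxp4 at 48032000 (82.6% and 57.9%) and in Foxo1 at 52116000 on chromosome 3 (85.7% and 61.2%). Foxp2 held 4 of the 10 losses among windows of at least 5 CpGs, and it had 264 of the 2208 windows.

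**Figure D5:**
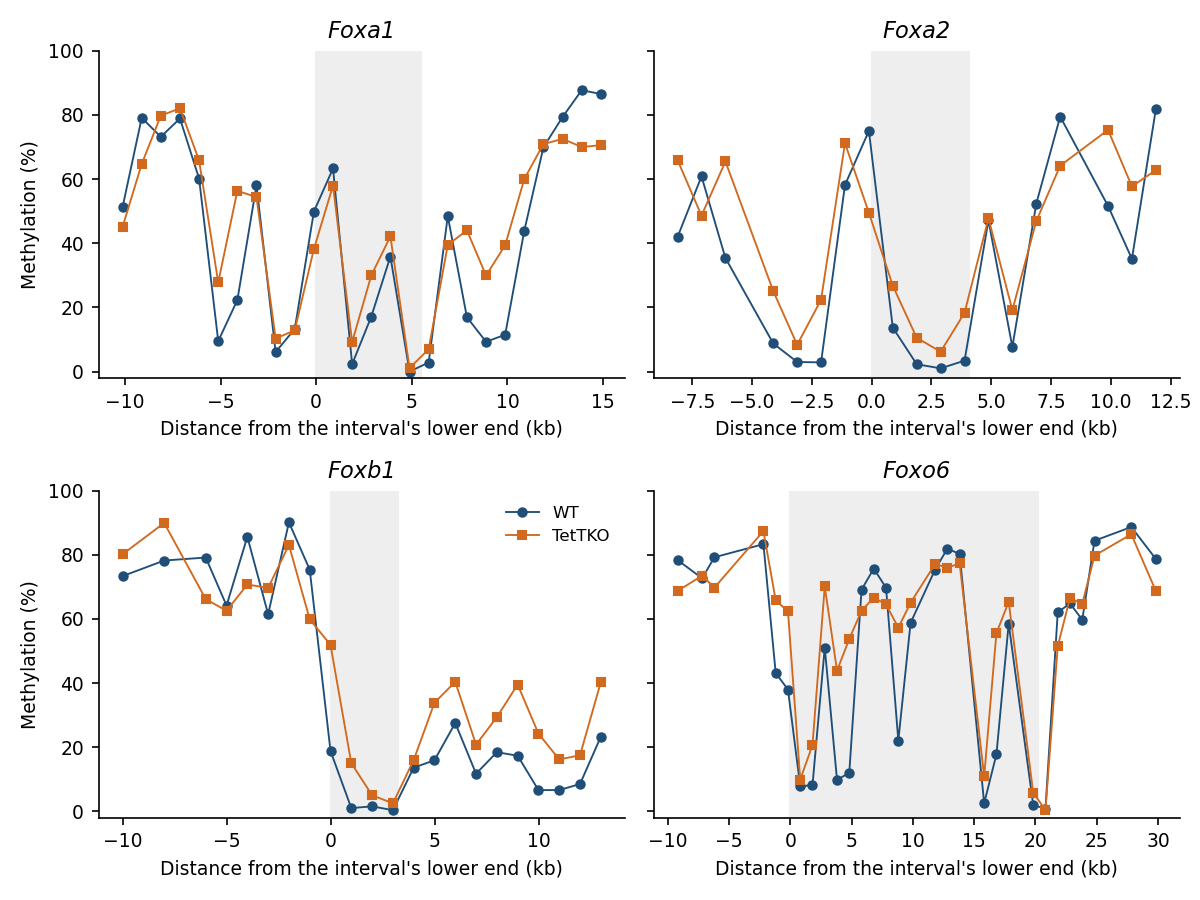
Methylation (percent) of 1 kb windows in WT (blue circles) and TetTKO (orange squares) around Foxa1, Foxa2, Foxb1 and Foxo6, by distance from the lower end of the gene interval (kb), with the interval shaded grey and only windows of at least 5 CpGs drawn. Low windows in WT that lie higher in TetTKO are seen outside Foxa1 and Foxb1 on the right and inside Foxo6, while the lowest windows of each gene stay low in both.

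Members that lie within 100 kb of each other did not always share a state. Foxc2, of lymphatic and mesenchymal development, and Foxl1 lie 8791 bp apart on chromosome 8. The less methylated end of Foxc2 was at 2.72% in WT and 3.29% in TetTKO, whereas that of Foxl1 was at 33.5% and 44.2%. Foxd2 and Foxe3 lie 16249 bp apart on chromosome 4, with ends at 0.966% and 1.30% and at 3.77% and 5.78%. Foxq1 and Foxf2 lie 64842 bp apart on chromosome 13, with ends at 6.73% and 17.7% and at 0.130% and 0.916%. All 6 genes were silent in WT.

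Set beside another family of developmental factors, the silent forkhead genes had smaller differences at their ends. The 39 Hox genes had a median less methylated end of 5.41% in WT and 12.5% in TetTKO, with a median difference of 5.91 points, against 1.64 points in the 26 silent forkhead genes. The 57 genes of other homeobox families had 2.76% and 6.80%, with a median difference of 2.47. These medians have no error over libraries, and the differences between families were not tested.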

How the data were processed

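The members and gene lists were chosen with earlier results of these data known. The deposited expression files hold FPKM per gene with an mm9 interval and no strand, rounded to 2 decimals. TopHat2 2.0.2 and Cufflinks 2.0.2 are named in the submitters' processing notes, and which gene models were counted is not given in the sources used here. RNA libraries were directional with single reads, per the labels' protocols, and of unknown depth. The deposited WGBS files hold, per CpG, the fraction of methylated reads and the counts of methylated and all reads, with 132794183 read calls in WT and 150132176 in TetTKO. Trim Galore, Bismark 0.7.9, Bowtie and SAMtools are named in the submitters' processing notes. A fraction was averaged over the CpGs of a region with at least 5 CpGs, and read counts gave exact 95% binomial intervals. Interval starts were read as 0-based, since RefSeq lengths equalled end minus start for 8174 genes and end minus start plus 1 for 531, and are printed 1-based.

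The 2-fold rule used log2((TetTKO + 1)/(WT + 1)) for genes of at least 1 FPKM in either library. With 1 library per group no test was fitted. Named members were those of at least 1 FPKM, the silent ones with the 6 highest and 6 lowest ends in WT or the 6 largest differences, those within 100 kb of each other, and the 6 largest gains and losses among windows of at least 10 CpGs; of the other lists, up to 3 with the largest difference and any past 2-fold. Other members named for their flank, promoter or tissue were chosen after their values were seen. Some genes that the rule names are not reported here. RefSeq promoters (GRCm38.p6) were placed by CpG spacing, with 370 of 538 CpGs listed. The functions were tested on simulated data. Python 3.11.15, numpy 2.4.6, pandas 2.3.3, scipy 1.17.1 and matplotlib 3.10.9 were used. Alternatives covered pseudocounts, filters, coverage, end sizes, averaging, window rules and leaving out chromosome 6.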

Additional observations from a re-analysis of the deposited data

How the results depend on the processing

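No paired analysis was possible because each group has 1 library and the labels carry no replicate numbers; for the same reason no replicate could be left out. Depth limits the methylation values: at a coverage of at least 10 only 28 of 41 ends could be measured, and of these 19 kept the sign of their difference. At that coverage the ends of Foxl1 and Foxp1 reversed, to -9.64 and -1.34 points. The cause was not tested.

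With a pseudocount of 0.1 FPKM, 1 member (Foxa3) was 2-fold lower. The median log2 fold change was 0.19 with a pseudocount of 0.1, 0.080 with 5, 0.014 without a filter, 0.28 at 5 FPKM or more and 0.17 without chromosome 6. The WT medians of silent and expressed ends and the median difference were 1.14%, 0.398% and 1.10 points for ends of 1 in 2 the length, and 7.31%, 6.96% and 2.65 points for ends of 2 times the length. They were 7.23%, 5.88% and 2.01 points at a coverage of at least 10, and 3.45%, 2.56% and 1.17 points from summed reads. For the mean over both ends they were 30.5%, 40.1% and 1.10 points, which is the 1 setting of these where silent ends were lower than expressed ones. An expression limit of 0.5 FPKM gave 3.65% and 2.13%, and one of 5 FPKM 2.72% and 1.74%. The median interval difference was 1.49 points at a coverage of at least 10 and 1.02 from summed reads.

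Gains and losses of windows were 16 and 2 with at least 10 CpGs, 107 and 97 at 20 points, and 8 and 3 at a coverage of at least 10; shifted windows and a limit of 5 kb kept both counts within 1.5 times.

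The following settings were chosen after seeing the data. At placed promoters the silent and expressed WT medians and the difference were 0.843%, 0.410% and 0.239 points. Without chromosome 6 the ends gave 3.71%, 1.69% and 1.03 points, the intervals 1.37 points and the window losses 6. The median flank differences of silent and expressed members were 1.08 and -3.58 points at a coverage of at least 10, 5.28 and -3.17 from summed reads, 8.61 and -1.83 from 1 to 3 kb, and 3.46 and -2.57 over both sides, and without chromosome 6 the expressed value was -2.49.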
